A study of Homo sapiens with 12 samples.

Results

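The genes described here are 46 genes of mitosis, the kinetochore and the spindle: cyclins and CDK1, the kinases, checkpoint and motor proteins that carry out cell division, condensins, and 2 transcription factors of the late cell cycle. They were listed by name and function, with earlier results of these data known. All 46 of 46 were measured, among 19775 genes in all. Their 86 probe sets are those that the annotation of the Affymetrix HG-U133 Plus 2.0 array gives to a single member. Where a gene had several probe sets, the one that was brightest on average across the 12 arrays stands for it. A probe set is a group of short probes for 1 transcript, and its signal is given on the log2 scale, where a difference of -1 means that 50% of the signal is left.

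The arrays came from U937 cells, an established line from a human histiocytic lymphoma that is used as a model of monocyte precursors. The cells were stably transduced with a Tet-On cassette, TRIPZ-shRNAmir, whose hairpin against ZXDC1/2, the products of the ZXDC gene, is made when doxycycline is present. There were 4 groups of 3 arrays, which the labels name biological replicates 1 to 3 without saying whether they are separate cultures: PMA with doxycycline, PMA, vehicle with doxycycline, and vehicle. PMA, a phorbol ester that switches on protein kinase C and makes these cells mature in the direction of macrophages, was given at 100 nM, and the vehicle was 0.1% DMSO. Per the labels, the cells had 0.5 µg/mL doxycycline each day over 4 days. PMA or vehicle was added after the first 2 days and left for 3 days. These spans do not add up to the 4 days, and the labels do not settle whether doxycycline was present throughout the agent treatment. All groups carry the same hairpin cassette and grew in puromycin. None of the 4 groups carries another hairpin or lacks the cassette, so an effect of the hairpin and an effect of doxycycline itself cannot be told apart.

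Before a cell divides, cyclin B and CDK1 start mitosis, condensins compact the chromosomes, and kinetochores built on the centromeres tie each chromosome to the spindle. The spindle checkpoint holds the cell until all chromosomes are attached. Then the anaphase promoting complex (APC/C) with its activator CDC20 marks securin and cyclin B for destruction, separase cuts cohesin, and motor proteins and the central spindle bring about cytokinesis. Most of these genes are transcribed late in the cell cycle. The MuvB complex binds their promoters, as part of the repressor DREAM in resting cells and together with MYBL2 and FOXM1 in dividing cells. It makes contact through a short element called the CHR, which often lies near CCAAT boxes bound by NF-Y. Cells that mature into macrophages usually leave the cell cycle.

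The promoters were set side by side because the genes moved together. RefSeq windows from 250 bases before to 50 after the transcription start (GRCh38.p14) were at hand for 40 of the 46 genes. AURKA, BIRC5, TTK, TPX2, UBE2C and FOXM1 are not among them. The letters searched, on both strands, were TTTGAA or TTCGAA for the CHR, CCAAT for the CCAAT box, and TTCGCGC or TTGGCGC for the core of an E2F site. The windows below run from 170 bases before to 30 after the start, 5′ to 3′ on the strand of the gene, with every match in capitals. KIF11, SPC25, CDC20, CDCA8, CDK1 and HMMR are shown because, among the genes described in full below, they had the largest falls without doxycycline of those that hold both a CHR and a CCAAT match. In CDCA8 the letters of the CHR match run into those of a CCAAT match, and in HMMR matches of the same kind touch or overlap.
KIF11 (chr10:92592960-92593159, plus strand): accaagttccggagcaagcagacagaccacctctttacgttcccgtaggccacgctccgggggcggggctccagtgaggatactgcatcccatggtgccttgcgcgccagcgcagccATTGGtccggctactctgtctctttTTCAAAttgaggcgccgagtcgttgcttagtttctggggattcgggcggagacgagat
SPC25 (chr2:168890401-168890600, minus strand): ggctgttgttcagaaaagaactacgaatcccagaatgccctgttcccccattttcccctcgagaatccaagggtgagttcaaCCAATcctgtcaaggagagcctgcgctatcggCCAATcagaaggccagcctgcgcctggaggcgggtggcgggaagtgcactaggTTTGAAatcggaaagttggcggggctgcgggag
CDC20 (chr1:43358811-43359010, plus strand): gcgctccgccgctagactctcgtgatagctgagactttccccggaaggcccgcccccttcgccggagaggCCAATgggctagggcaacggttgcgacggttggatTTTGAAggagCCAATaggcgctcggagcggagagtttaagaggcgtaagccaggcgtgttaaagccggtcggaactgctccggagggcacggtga
CDCA8 (chr1:37692346-37692545, plus strand): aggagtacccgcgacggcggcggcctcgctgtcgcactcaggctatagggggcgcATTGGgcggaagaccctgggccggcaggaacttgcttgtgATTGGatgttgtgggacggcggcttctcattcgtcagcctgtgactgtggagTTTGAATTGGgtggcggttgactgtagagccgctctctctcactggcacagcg
CDK1 (chr10:60778161-60778360, plus strand): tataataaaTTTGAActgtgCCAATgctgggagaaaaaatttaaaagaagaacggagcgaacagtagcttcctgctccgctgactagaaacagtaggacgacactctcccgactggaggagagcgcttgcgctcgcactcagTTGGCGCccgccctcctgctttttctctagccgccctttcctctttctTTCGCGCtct
HMMR (chr5:163460462-163460661, plus strand): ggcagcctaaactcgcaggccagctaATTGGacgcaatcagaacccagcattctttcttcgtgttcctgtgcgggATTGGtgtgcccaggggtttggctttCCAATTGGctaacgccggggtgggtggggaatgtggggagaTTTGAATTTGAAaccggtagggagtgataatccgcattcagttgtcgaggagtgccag
The next 2 are shown as contrasts. MYBL2, whose product works on these promoters, has no match to the exact letters searched in the window. ESPL1 was added after its values were seen, since it holds a CHR match and a CCAAT match and is the 1 gene of the 46 that did not pass the test below.
MYBL2 (chr20:43666944-43667143, plus strand): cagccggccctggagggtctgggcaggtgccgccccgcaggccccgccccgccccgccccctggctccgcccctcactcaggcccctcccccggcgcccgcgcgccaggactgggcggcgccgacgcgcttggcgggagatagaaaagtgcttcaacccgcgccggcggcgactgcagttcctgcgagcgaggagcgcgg
ESPL1 (chr12:53268129-53268328, plus strand): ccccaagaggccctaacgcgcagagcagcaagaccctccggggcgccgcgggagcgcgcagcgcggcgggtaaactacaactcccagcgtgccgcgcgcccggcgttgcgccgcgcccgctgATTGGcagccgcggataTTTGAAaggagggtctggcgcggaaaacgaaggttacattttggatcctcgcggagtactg

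A CHR match was found in 29 of 40 promoters of these genes (72.5%), against 2050 of 15384 promoters of all measured genes (13.3%). CCAAT matches were in 29 of 40 (72.5%), against 36.1% of all measured genes, and at least 2 of them in 18 of 40 (45%), against 12.3%. Both a CHR and a CCAAT match were present in 22 of 40 (55%), against 5.43%. The E2F core was in 5 of 40 (12.5%), against 6.83%. The 39 CHR matches had a median position of -28 from the transcription start, and 26 of them began between -60 and 30. CDC25C, CENPE, KIF2C and MYBL2 held none of the 3 motifs in the window. These letter matches describe the sequence and do not show that a factor was bound. Sites spelled otherwise were not searched, so a promoter without a match may still hold such a site.

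**Figure D1:**
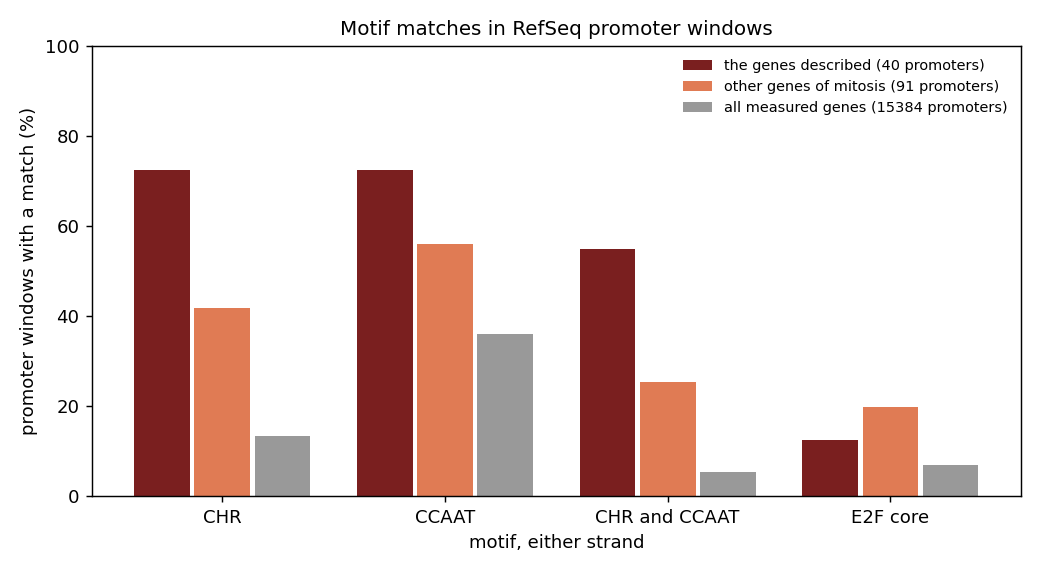
Bars give the percentage of RefSeq promoter windows (250 bases before to 50 after the start) with at least 1 match on either strand, for 40 of the genes described, 91 other genes of mitosis and 15384 measured genes. CHR matches were in 72.5%, 41.8% and 13.3% of these windows.

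PMA lowered nearly all of these genes. Without doxycycline 45 of 46 fell and 0 rose by limma's moderated test at a Benjamini-Hochberg adjusted p under 0.05 over all 19775 genes, of which 18.9% fell and 12.7% rose. The median difference, PMA minus vehicle, was -1.84, so that 27.8% of the signal was left, while the median over all genes was 0.01. With doxycycline in both groups 45 of 46 fell and 0 rose, against 19.5% of all genes that fell and 13% that rose, with a median of -1.91 and 26.7% of the signal left (median over all genes -0.01). A fall of at least 1 was called in 44 of 46 without and 43 of 46 with doxycycline, against 6.27% and 6.88% of all genes. On the 3 PMA arrays 45 of 46 genes lay below all 3 vehicle arrays, against 23% of all genes, and with doxycycline 44 of 46 did, against 24.4%. ESPL1 was the exception in every one of these counts, joined by INCENP for the falls of at least 1, by PLK1 for that count with doxycycline, and by INCENP for the arrays with doxycycline. In each limma test the p-value sets the difference against a spread within groups, shared by all 4 groups of 3 arrays and moderated over all genes. RNA from a whole culture cannot tell fewer dividing cells from less of these transcripts per dividing cell.

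**Figure D2:**
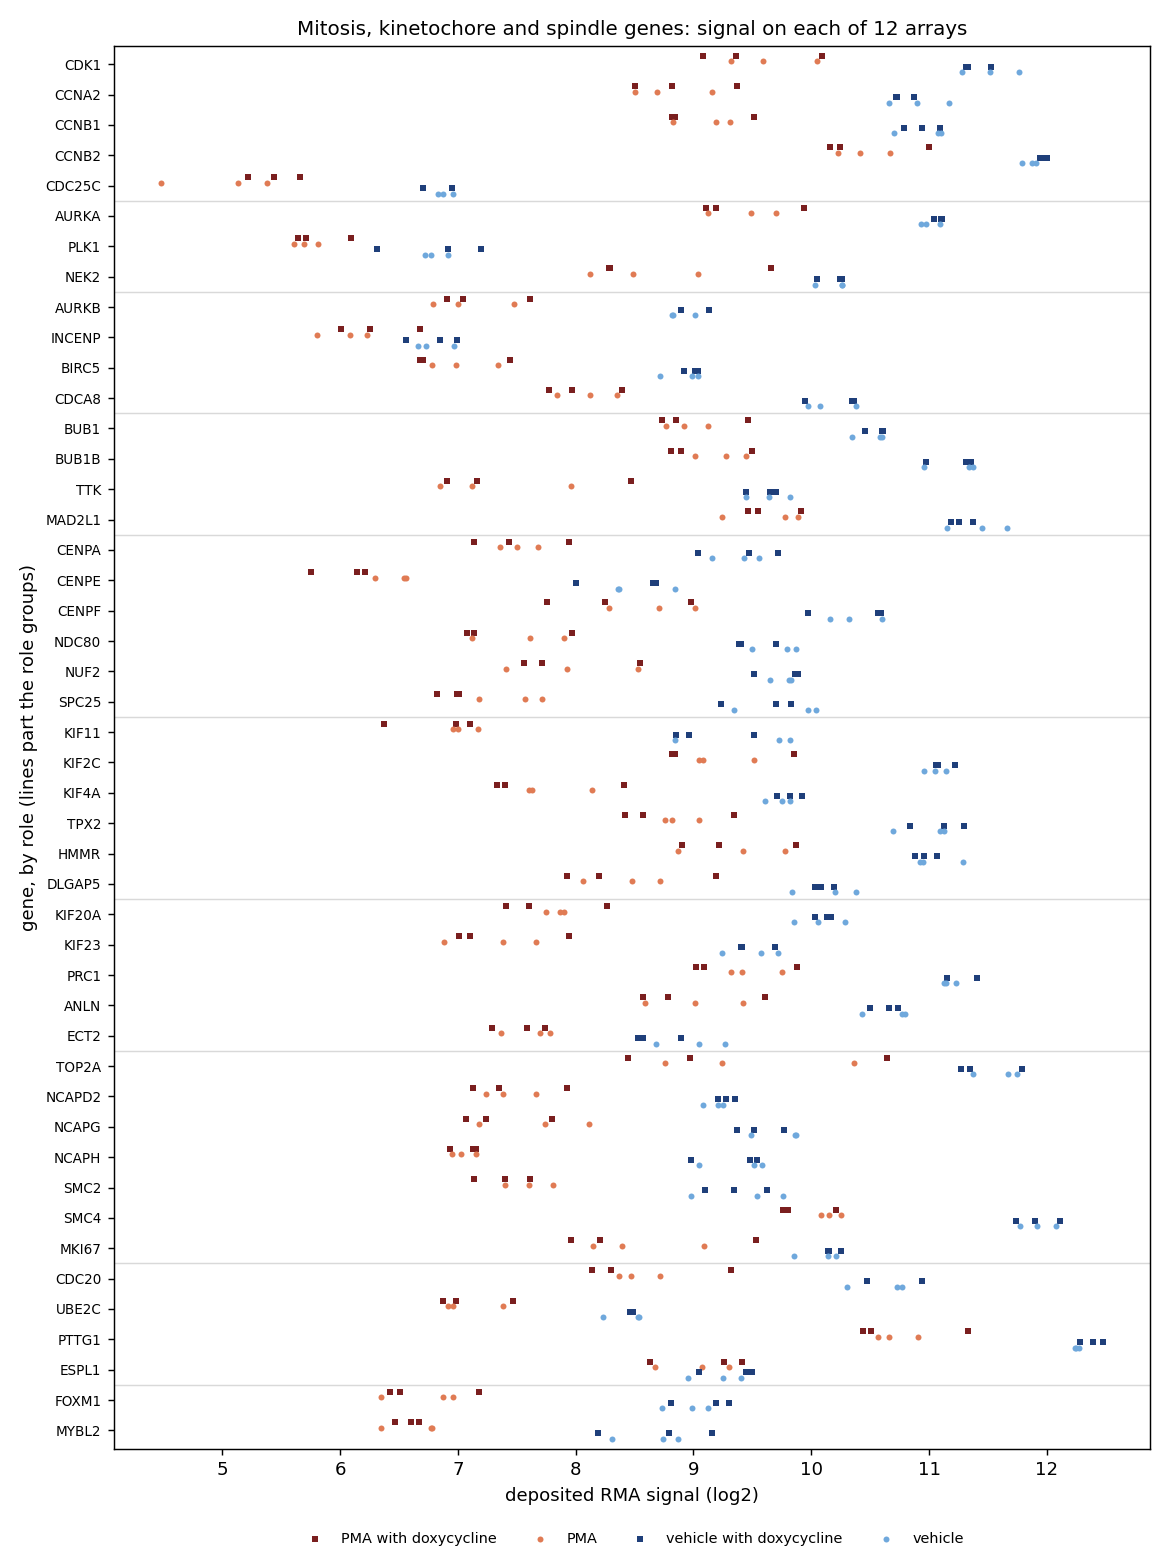
Each symbol is the deposited RMA signal (log2) of 1 gene on 1 array, with 3 arrays per group and genes ordered by role. For 44 of the 46 genes the PMA arrays lie left of the vehicle arrays both with and without doxycycline, and the ESPL1 symbols overlap.

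CDK1 and its cyclins fell in 5 of 5 members, with a median difference of -1.87 without doxycycline and -1.88 with it. In the order of replicates 1, 2 and 3, CDK1, the kinase that starts mitosis, read 10.05, 9.32 and 9.59 under PMA, against 11.28, 11.76 and 11.52 under vehicle. With doxycycline it read 10.09, 9.36 and 9.08 under PMA, against 11.31, 11.33 and 11.53 under vehicle. All PMA arrays lay at least 1 step of the log2 scale below the vehicle arrays, with differences of -1.87 (SE 0.23, adjusted p = 2.42e-05) without and -1.88 (SE 0.23, adjusted p = 2.01e-05) with doxycycline. CCNA2, cyclin A2, which works with CDK partners in S phase and early mitosis, read 9.16, 8.50 and 8.69 under PMA, against 10.66, 11.17 and 10.90 under vehicle, a difference of -2.13 (SE 0.21, adjusted p = 3.25e-06). With doxycycline CCNA2 read 9.37, 8.82 and 8.50 under PMA, against 10.72, 10.73 and 10.87 under vehicle, a difference of -1.88 (SE 0.21, adjusted p = 8.74e-06). CCNB2, cyclin B2, had the smallest difference of the 5 without doxycycline, -1.42 (SE 0.18, adjusted p = 3.17e-05), and read 10.67, 10.23 and 10.41 under PMA, against 11.79, 11.87 and 11.91 under vehicle. With doxycycline CCNB2 averaged 10.47 ± 0.46 under PMA, against 11.97 ± 0.03 under vehicle (SD, n = 3 each), again with no overlap, and its difference was -1.5 (SE 0.18, adjusted p = 1.72e-05). With the mean of its 3 probe sets in place of the brightest, the CCNB2 difference was -0.44 without and -0.47 with doxycycline. CCNB1, the cyclin B that CDK1 needs to enter mitosis, differed by -1.85 and -1.89, and CDC25C, a phosphatase that activates CDK1, by -1.89 and -1.35. The mean of the CDC25C probe sets gave -0.88 in both settings, and with the brightest one CDC25C averaged 5.0 under PMA, below the array medians.

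The mitotic kinases AURKA, PLK1 and NEK2 fell in 3 of 3, with medians of -1.56 without and -1.44 with doxycycline. NEK2, which helps the centrosomes to part, read 9.04, 8.12 and 8.49 under PMA, against 10.03, 10.26 and 10.26 under vehicle, and its difference was -1.63 (SE 0.31, adjusted p = 0.000778). The array numbered 1 was the highest of the 3 PMA arrays, and with doxycycline it stood further out, at 9.66 against 8.28 and 8.29 on the other PMA arrays with doxycycline. The vehicle arrays with doxycycline read 10.26, 10.05 and 10.24, and the difference there was -1.44 (SE 0.31, adjusted p = 0.00195). PLK1, a kinase of centrosome maturation and mitotic entry, had the smallest difference of the 3. It read 5.81, 5.69 and 5.61 under PMA, against 6.72, 6.92 and 6.77 under vehicle, a difference of -1.10 (SE 0.19, adjusted p = 0.000377). With doxycycline it read 6.09, 5.71 and 5.64 under PMA, against 6.31, 7.20 and 6.92 under vehicle, a difference of -0.99 (SE 0.19, adjusted p = 0.000804), and the nearest arrays of the groups lay close together without overlap. AURKA, the kinase of the spindle poles, differed by -1.56 and -1.67.

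The chromosomal passenger complex, which corrects faulty attachments at the centromere and later acts in the central spindle, fell in 4 of 4 members, unevenly. CDCA8, the subunit borealin, read 8.35, 8.12 and 7.84 under PMA, against 9.97, 10.07 and 10.38 under vehicle, a difference of -2.04 (SE 0.18, adjusted p = 1.25e-06). In the presence of doxycycline it read 8.39, 7.97 and 7.77 under PMA, against 9.95, 10.36 and 10.35 under vehicle, and the difference was -2.18 (SE 0.18, adjusted p = 5.72e-07). AURKB, the kinase of the complex, differed by -1.80 and -1.86 (-1.17 without doxycycline with the mean of its 2 probe sets), and BIRC5, survivin, by -1.89 and -2.05. INCENP, the scaffold that binds them, had a smaller difference. It read 6.08, 6.23 and 5.80 under PMA, against 6.66, 6.97 and 6.73 under vehicle, where the groups do not overlap, with a difference of -0.75 (SE 0.17, adjusted p = 0.00378). With doxycycline it read 6.68, 6.25 and 6.01 under PMA, against 6.85, 6.99 and 6.56 under vehicle, where they do overlap, and the difference was -0.48 (SE 0.17, adjusted p = 0.0472). That call with doxycycline was held in 8 of 22 alternative settings. Its adjusted p by limma was 0.123 without PMA with doxycycline replicate 2 and 0.211 without replicate 3, where the difference was -0.33. It was 0.109 without vehicle with doxycycline replicate 1 and 0.174 without replicate 2. Without PMA replicate 1, or without any 1 of the 3 vehicle arrays, it lay between 0.0503 and 0.0616.

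The spindle checkpoint genes fell in 4 of 4, with medians of -1.88 and -1.86. TTK, the kinase also called MPS1 that sets the checkpoint going, read 7.96, 6.85 and 7.12 under PMA, against 9.45, 9.82 and 9.64 under vehicle, a difference of -2.32 (SE 0.34, adjusted p = 9.42e-05). Under PMA with doxycycline it read 8.47, 7.16 and 6.91, with the array numbered 1 more than 1 above the others, against 9.65, 9.45 and 9.70 under vehicle with doxycycline, and the difference was -2.09 (SE 0.34, adjusted p = 0.000219). BUB1, a kinase that recruits other checkpoint proteins, had the smallest difference of the 4. It read 9.12, 8.77 and 8.92 under PMA, against 10.35, 10.60 and 10.58 under vehicle, and the differences were -1.57 (SE 0.17, adjusted p = 6.22e-06) without and -1.54 (SE 0.17, adjusted p = 6.70e-06) with doxycycline. The arrays with doxycycline were 9.46, 8.85 and 8.73 under PMA, against 10.61, 10.46 and 10.60 under vehicle. The mean of all BUB1 probe sets gave -0.81 without and -0.76 with doxycycline. BUB1B, BubR1, differed by -1.98 and -2.15, and MAD2L1, the Mad2 protein that holds CDC20 inactive, by -1.79 and -1.63.

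All 6 centromere and kinetochore genes fell, with medians of -1.96 and -2.07. SPC25, a subunit of the NDC80 complex that grips microtubules, read 7.57, 7.18 and 7.71 under PMA, against 9.34, 10.04 and 9.97 under vehicle, and 20.3% of its signal was left at a difference of -2.30 (SE 0.20, adjusted p = 9.27e-07). With doxycycline it read 7.01, 6.99 and 6.82 under PMA, against 9.23, 9.70 and 9.83 under vehicle, with 15.9% left at a difference of -2.65 (SE 0.20, adjusted p = 2.13e-07). This was the largest fall among the 46 genes in that comparison. Its complex partners NDC80 and NUF2 differed by -2.18 and -1.81 without doxycycline and by -2.10 and -1.81 with it. CENPF, a large protein of the outer kinetochore, had the smallest difference of the 6 without doxycycline. It read 9.01, 8.28 and 8.71 under PMA, against 10.16, 10.60 and 10.32 under vehicle, a difference of -1.69 (SE 0.27, adjusted p = 0.000226). Its arrays with doxycycline read 8.98, 8.25 and 7.76 under PMA, against 9.97, 10.59 and 10.57 under vehicle, a difference of -2.05 (SE 0.27, adjusted p = 3.85e-05), and the arrays were again apart. CENPA, the histone H3 variant that marks centromeres, differed by -1.87 and -1.91, and CENPE, a kinetochore motor, by -2.06 and -2.41.

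Spindle motors and assembly factors fell in 6 of 6, with medians of -1.89 and -2.03. KIF11, the motor also called Eg5 that pushes the spindle poles apart, had the largest fall of the 46 genes without doxycycline. It read 7.17, 6.96 and 7.0 under PMA, against 8.84, 9.82 and 9.73 under vehicle, a difference of -2.42 (SE 0.25, adjusted p = 5.18e-06) that left 18.7% of the signal. With doxycycline it read 6.98, 7.10 and 6.37 under PMA, against 8.85, 8.96 and 9.51 under vehicle, a difference of -2.29 (SE 0.25, adjusted p = 7.50e-06). The lowest vehicle array stayed well above the highest PMA array in both settings. HMMR, a spindle assembly protein, lay at the other end of this set and read 9.78, 8.87 and 9.42 under PMA, against 10.92, 11.29 and 10.95 under vehicle, with differences of -1.70 (SE 0.24, adjusted p = 6.97e-05) and -1.64 (SE 0.24, adjusted p = 8.59e-05). With doxycycline HMMR read 9.87, 9.22 and 8.90 under PMA, against 10.88, 10.96 and 11.07 under vehicle. TPX2, which activates AURKA on the spindle, differed by -2.09 and -2.31. The microtubule depolymerase KIF2C, the chromokinesin KIF4A and the spindle protein DLGAP5 lay between -1.93 and -1.72 without doxycycline.

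Central spindle and cytokinesis genes fell in 5 of 5, with medians of -1.67 and -1.90. KIF20A, a motor of the central spindle, read 7.90, 7.75 and 7.87 under PMA, against 9.85, 10.06 and 10.29 under vehicle, with 21.3% of the signal left at a difference of -2.23 (SE 0.18, adjusted p = 4.99e-07). In doxycycline KIF20A read 8.27, 7.60 and 7.41 under PMA, against 10.03, 10.13 and 10.17 under vehicle, and the difference was -2.35 (SE 0.18, adjusted p = 2.70e-07). ECT2, the exchange factor that turns on RhoA for the contractile ring, had the smallest difference in this set. Its signals were 7.78, 7.37 and 7.70 under PMA, against 8.68, 9.27 and 9.05 under vehicle, a difference of -1.39 (SE 0.17, adjusted p = 2.30e-05). With doxycycline they were 7.74, 7.59 and 7.29 under PMA, against 8.53, 8.57 and 8.89 under vehicle, a difference of -1.12 (SE 0.17, adjusted p = 0.000134). The mean of all ECT2 probe sets gave -0.54 and -0.48. KIF23, the motor of centralspindlin, PRC1, which bundles the midzone microtubules, and ANLN, the ring scaffold anillin, differed by -2.20, -1.67 and -1.66 without doxycycline.

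Genes of chromosome structure fell in 7 of 7, with medians of -1.82 and -1.99. The condensin I subunit NCAPH read 7.15, 7.03 and 6.95 under PMA, against 9.05, 9.51 and 9.58 under vehicle, a wide gap beside the narrow spread of the PMA arrays, and its difference was -2.34 (SE 0.17, adjusted p = 1.35e-07). Its values with doxycycline were 7.13, 7.15 and 6.93 under PMA, against 8.98, 9.54 and 9.48 under vehicle, where the gap was much the same, and the difference was -2.26 (SE 0.17, adjusted p = 1.53e-07). The other condensin subunits NCAPD2, NCAPG, SMC2 and SMC4 differed by -1.75, -2.06, -1.82 and -1.76. MKI67, the proliferation marker Ki-67 that coats mitotic chromosomes, read 9.09, 8.15 and 8.39 under PMA, against 9.85, 10.14 and 10.21 under vehicle, a difference of -1.52 (SE 0.32, adjusted p = 0.00204). Under PMA with doxycycline the MKI67 arrays were 9.53, 8.21 and 7.96, spread over more than 1, against 10.15, 10.14 and 10.25 under vehicle with doxycycline, and the difference was -1.62 (SE 0.32, adjusted p = 0.00121). TOP2A, the topoisomerase that untangles chromosomes, differed by -2.14 and -2.12 and had the widest spread within groups of the 46 genes, with a pooled SD of 0.73 beside a median SD of 0.29 over the members.

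Of the 4 genes of the APC/C and of sister separation 3 fell and ESPL1 did not pass the test. CDC20, the APC/C activator of anaphase, read 8.72, 8.37 and 8.47 under PMA, against 10.30, 10.77 and 10.73 under vehicle, a difference of -2.08 (SE 0.26, adjusted p = 2.06e-05). In doxycycline CDC20 read 9.32, 8.14 and 8.30 under PMA, against 10.47, 10.94 and 10.94 under vehicle, where the array numbered 1 was the highest of the PMA arrays, and the difference was -2.20 (SE 0.26, adjusted p = 1.09e-05). UBE2C, the ubiquitin enzyme of the APC/C, differed by -1.35 and -1.36, and PTTG1, securin, the inhibitor of separase, by -1.54 and -1.62. ESPL1, which encodes separase itself, read 8.67, 9.30 and 9.07 under PMA, against 8.95, 9.25 and 9.40 under vehicle. With doxycycline it read 8.63, 9.26 and 9.41 under PMA, against 9.05, 9.50 and 9.45 under vehicle. The groups overlap in both settings, and the differences were -0.19 (SE 0.21, adjusted p = 0.582) and -0.23 (SE 0.21, adjusted p = 0.481). The second ESPL1 probe set gave -0.33 (SE 0.20, adjusted p = 0.281) and -0.20 (SE 0.20, adjusted p = 0.552), so both probe sets of the gene read alike. In 22 alternative settings ESPL1 was called in 0, with values between -0.33 and -0.02 without doxycycline and between -0.39 and 0.00 with it.

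Both transcription factors fell. FOXM1, an activator of mitotic genes, read 6.96, 6.87 and 6.35 under PMA, against 8.73, 8.99 and 9.12 under vehicle, with 21.5% of its signal left at a difference of -2.22 (SE 0.21, adjusted p = 2.19e-06). The FOXM1 arrays with doxycycline were 7.18, 6.51 and 6.42 under PMA, against 8.81, 9.30 and 9.19 under vehicle, and 19% was left at a difference of -2.40 (SE 0.21, adjusted p = 9.33e-07). MYBL2, B-Myb, the partner of the MuvB complex, read 6.35, 6.78 and 6.77 under PMA, against 8.31, 8.87 and 8.74 under vehicle, and its differences were -2.01 (SE 0.21, adjusted p = 6.02e-06) and -2.13 (SE 0.21, adjusted p = 3.07e-06). With doxycycline MYBL2 read 6.67, 6.47 and 6.60 under PMA, against 8.19, 9.16 and 8.79 under vehicle. For both factors the groups were apart by more than 1 in both settings.

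**Figure D3:**
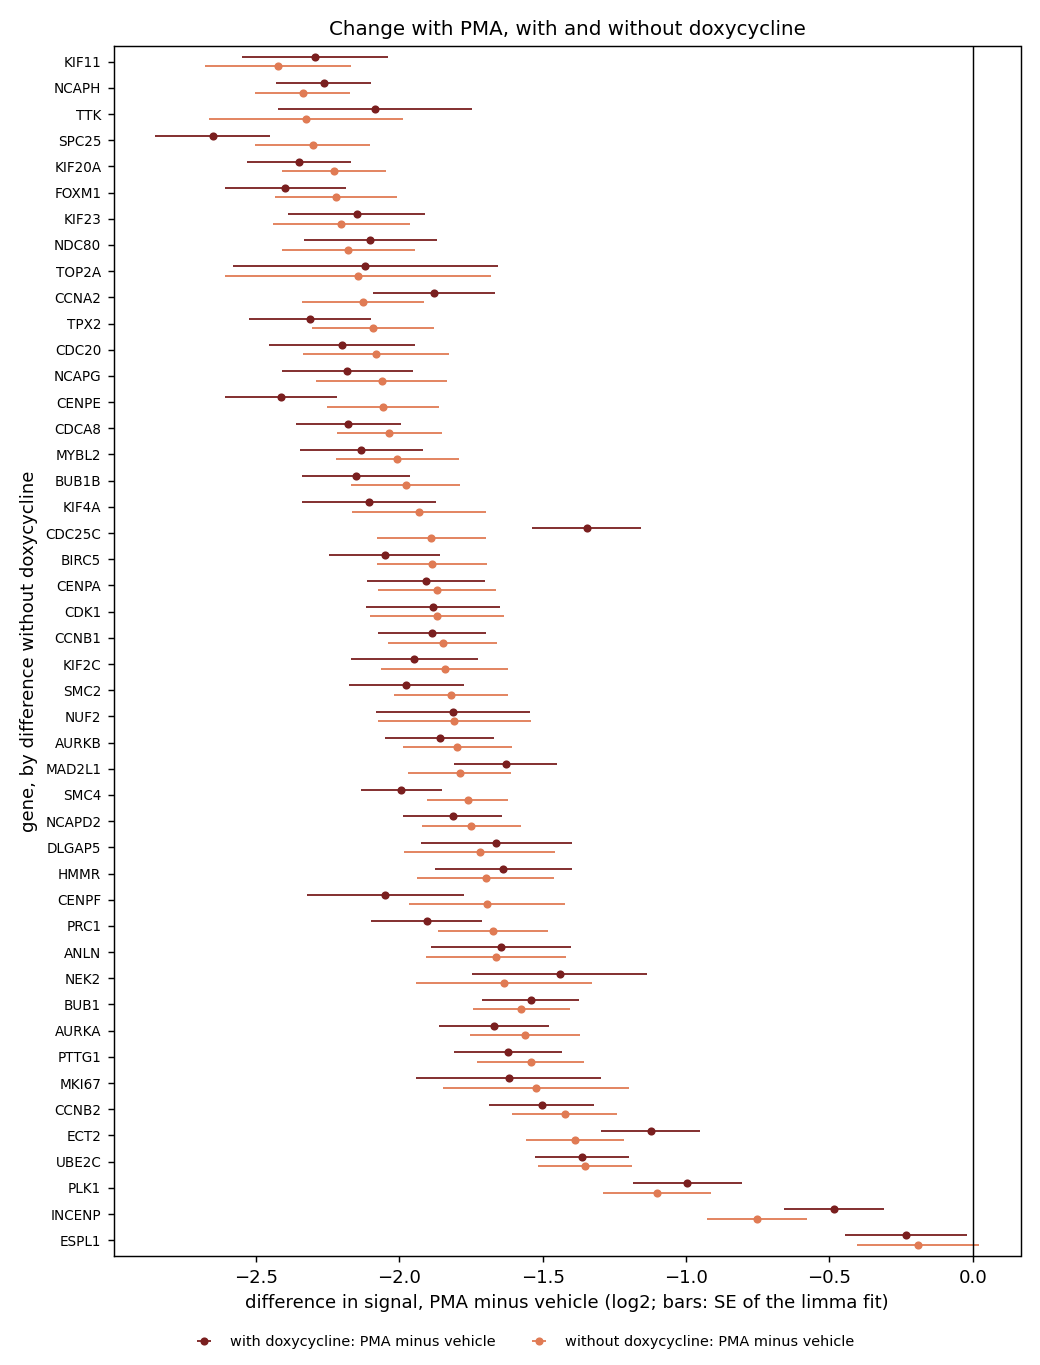
Points are differences in signal, PMA minus vehicle (log2), for each gene with and without doxycycline, and bars are the SE of the limma fit. Without doxycycline the values run from -2.42 for KIF11 to -0.19 for ESPL1, and with doxycycline from -2.65 for SPC25 to -0.23 for ESPL1.

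The size of the fall depended on the choice of probe set for a number of genes. Of the 23 genes with several probe sets, 16 had all of them called downward without doxycycline. Of the 86 probe sets 74 fell without doxycycline and 73 with it, and 0 rose, against 15.5% and 16.1% of 41091 probe sets called downward. Of the 12 that did not pass without doxycycline, 2 belong to ESPL1. The other 10 belong to CCNB2, CDC25C, AURKB, BUB1, CENPF and ECT2, none of them the probe set read for its gene. Their vehicle means lay between 3.35 and 5.98, beside array medians of 5.16 to 5.22. The AURKB probe set, at 5.98, and the brighter of these CCNB2 probe sets, at 5.68, lay above the medians. Without doxycycline the probe sets of CDC25C ran from -1.89 to 0.03, of CCNB2 from -1.42 to 0.18 and of ECT2 from -1.39 to 0.17. Those of BUB1 ran from -1.61 to -0.08 and of CENPF from -2.10 to -0.60. All 4 probe sets of MKI67 were called, with differences from -2.25 to -1.45 without doxycycline, and so were all 4 of CDK1, from -1.87 to -1.35. Those of AURKA, SMC4 and TOP2A were all called too, from -1.56 to -0.78, from -1.81 to -0.68 and from -2.14 to -1.05. Over the 46 genes the vehicle mean and the difference correlated at a Spearman rho of 0.04 and a Pearson coefficient of -0.20. The difference contains the vehicle mean, so these values cannot show whether the fall depends on the level. The genes share the same 6 arrays and are not independent replicates.

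The sizes of the fall overlapped between genes with and without the promoter motifs. The 29 genes with a CHR match had a median difference of -1.79 without doxycycline, from -2.42 to -0.19, and the 11 genes without one a median of -1.89, from -2.34 to -1.54. The 4 genes with none of the 3 motifs had a median of -1.95. With doxycycline the medians were -1.90 with a CHR match, -1.89 without one and -2.04 with none of the 3 motifs, so the order of the first 2 was reversed. No test was made of these medians.

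The arrays numbered 1 stood apart for these genes. Under PMA with doxycycline 40 of 46 genes were highest on replicate 1, and under PMA 38 of 46, where 41.8% and 32.1% of all genes were. Under vehicle with doxycycline 33 of 46 were lowest on replicate 1, and under vehicle 42 of 46, where 34.3% and 34.6% of all genes were. The median of the 46 genes was 8.51 on PMA with doxycycline replicate 1, against 7.84 and 7.66 on replicates 2 and 3, and 8.44 on PMA replicate 1, against 7.91 and 7.90. It was 9.90 on vehicle with doxycycline replicate 1, against 9.98 and 10.03, and 9.74 on vehicle replicate 1, against 10.05 and 10.09. For the ACTB control, the 3' probe set exceeded the 5' one, which reflects RNA quality. The gap was 1.99 to 2.72 on the 4 arrays numbered 1 and 0.71 to 1.64 on the other 8 (log2). For the GAPDH control the ranges overlapped, with 0.17 to 0.25 on the arrays numbered 1 and 0.12 to 0.25 on the other 8. The part of RNA quality in this pattern was not tested. Without the arrays numbered 1, 45 of 46 genes fell in both comparisons, and the medians were -2.05 without and -2.21 with doxycycline. The medians over all genes were then 0.04 and -0.02. Falls of at least 2 were called in 28 and 32 of the 46 genes without the arrays numbered 1, against 16 and 19 with all arrays. With all arrays 1.05% and 1.32% of all genes had such falls. The shares of all genes without the arrays numbered 1 are not given here, so the larger counts cannot be called particular to the 46 genes.

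**Figure D4:**
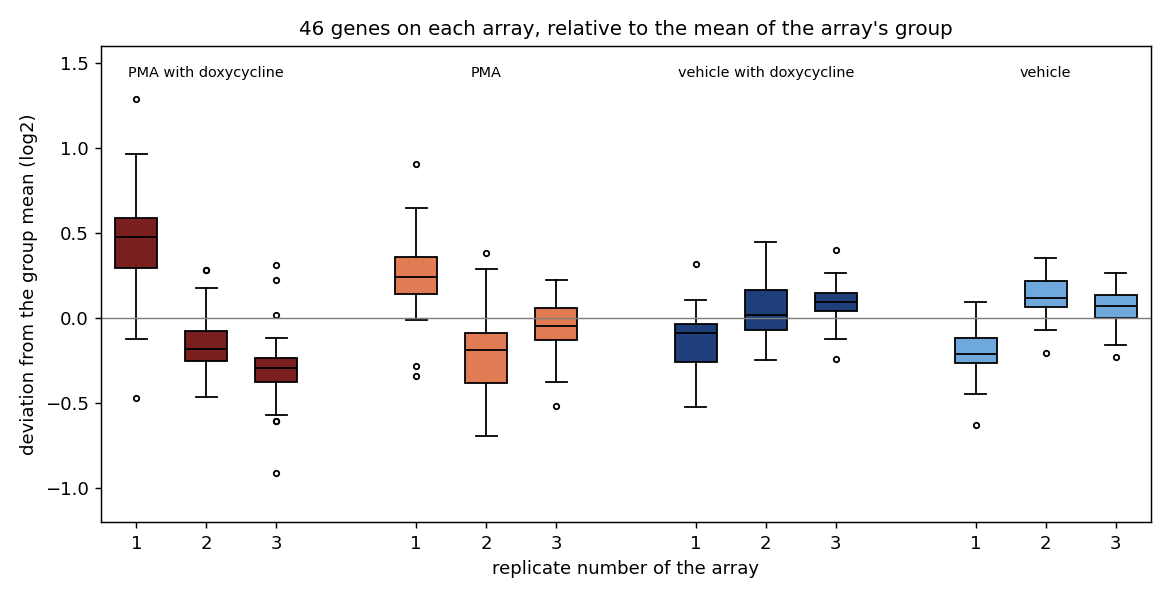
Each box shows the 46 genes on 1 array as the deviation of each gene's signal from its mean over the 3 arrays of the group (log2), with the median as a line, the middle 50% as the box and points for values beyond 1.5 box lengths. The arrays numbered 1 have medians of 0.48 and 0.24 in the PMA groups and of -0.09 and -0.21 in the vehicle groups.

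Doxycycline, which lowered ZXDC itself to 7.39, 7.43 and 7.02 under PMA with doxycycline, against 7.96, 7.89 and 7.51 under PMA, and to 7.16, 7.25 and 7.44 under vehicle with doxycycline, against 8.01, 7.63 and 7.69 under vehicle, moved none of the 46 genes past the test in any comparison. The averaged ZXDC difference was -0.50, lower in every pair of arrays with the same number, with an exact permutation p of 0.005 (two-sided, arrays exchanged within agents), the smallest it can give. Over all genes limma's adjusted p for ZXDC was 0.42 averaged, 0.613 in PMA and 0.9998 in vehicle, so ZXDC did not pass that test either. The ZXDC signal was not lost, with 70.6% of the signal left under PMA and 71.1% under vehicle.

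In PMA-treated cells 0 of 46 genes passed with doxycycline (1 gene of 19775 did, 0.00506%), and 3 of 46 had an unadjusted p under 0.05, against 6.14% of all genes. The median difference, PMA with doxycycline minus PMA, was -0.02, with a range from -0.55 to 0.44. The 3 were SPC25, CDC25C and CENPE. SPC25 read 7.01, 6.99 and 6.82 under PMA with doxycycline, against 7.57, 7.18 and 7.71 under PMA, with no overlap and a difference of -0.55 (SE 0.20, adjusted p = 0.711 by limma). CENPE read 6.14, 6.21 and 5.75 under PMA with doxycycline, against 6.54, 6.30 and 6.56 under PMA, a difference of -0.43 (SE 0.19, adjusted p = 0.807 by limma), again with all arrays with doxycycline below those without. CDC25C read 5.44, 5.22 and 5.66 under PMA with doxycycline, against 5.13, 5.38 and 4.48 under PMA, where the arrays overlap, a difference of 0.44 (SE 0.19, adjusted p = 0.794 by limma). The CDC25C difference was 0.18 without PMA replicate 3 and 0.03 with the mean of its probe sets. Pair by pair the 46 genes did not move one way: with doxycycline 37 were higher and 9 lower in the PMA pair numbered 1, 24 higher and 22 lower in pair 2, and 7 higher and 39 lower in pair 3, with medians of 0.20, 0.01 and -0.30. The median over all pairs therefore rests on single arrays, and was -0.28 without PMA with doxycycline replicate 1 and 0.10 without PMA replicate 1.

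In vehicle-treated cells 0 of 46 genes passed (0 of all genes did, 0%), and 0 had an unadjusted p under 0.05, against 2.58% of all genes. The median difference, vehicle with doxycycline minus vehicle, was 0.01, from -0.36 for KIF11 to 0.18 for CDC20. By p the first 3 were ECT2 at -0.34 (SE 0.17), KIF11 at -0.36 (SE 0.25) and SPC25 at -0.20 (SE 0.20), each with an adjusted p of 1 by limma. With the mean of its probe sets ECT2 differed by -0.06. Without vehicle replicate 2 ECT2 differed by -0.21 and KIF11 by -0.18, and without vehicle replicate 1 KIF11 differed by -0.67 and SPC25 by -0.42. Without vehicle with doxycycline replicate 1 the SPC25 difference was -0.02. ECT2 read 8.53, 8.57 and 8.89 under vehicle with doxycycline, against 8.68, 9.27 and 9.05 under vehicle, and the arrays overlap. By pairs 32, 22 and 24 of the 46 genes were higher with doxycycline.

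Averaged over both agents 0 of 46 genes passed (0% of all genes did), and SPC25 alone had an unadjusted p under 0.05, against 6.06% of all genes. Its averaged difference was -0.37 (SE 0.14, adjusted p = 0.779 by limma), with an exact permutation p of 0.06. CENPE and ECT2 followed, at -0.26 and -0.21, with exact permutation p of 0.135 and 0.17. The averaged CENPE difference was -0.14 without vehicle with doxycycline replicate 1. That of ECT2 was -0.14 without vehicle replicate 2 and -0.03 with the mean of its probe sets. Whether doxycycline changed the PMA effect was tested as an interaction. It passed for 0 of 46 genes (0% of all genes), and 0 had an unadjusted p under 0.05, against 2.62% of all genes. By p CDC25C came first, with an interaction of 0.54 (SE 0.27, adjusted p of 1 by limma). It was 0.28 without PMA replicate 3, and near 0 with the mean of the CDC25C probe sets. CENPE and SPC25 came next, at -0.35 (SE 0.28) and -0.35 (SE 0.28). With 1 array left out the CENPE interaction lay between -0.58 (without vehicle with doxycycline replicate 1) and -0.21 (without PMA with doxycycline replicate 3). That of SPC25 lay between -0.53 (without vehicle with doxycycline replicate 1) and -0.13 (without vehicle replicate 1). The SE of the doxycycline differences within an agent had a median of 0.20 over the 46 genes, from 0.14 for SMC4 to 0.46 for TOP2A. Differences well above the SE did not pass either. In PMA these were SPC25 at -0.55 (SE 0.20) and the hairpin target ZXDC at -0.50 (SE 0.16), with adjusted p of 0.711 and 0.613 by limma. Differences of that size may thus not have been detectable with 3 arrays per group, and 0 of 46 does not show that the genes were unchanged.

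Other genes of mitosis, in 9 lists that hold 105 measured genes, mostly moved the same way. Without doxycycline 84 of 105 fell and 2 rose, with a median of -1.25, against 18.9% of all genes that fell and 12.7% that rose. With doxycycline 83 fell and 3 rose, with a median of -1.14, against 19.5% and 13% of all genes. Other kinetochore genes fell in 24 of 25 (23 with doxycycline). ZWINT, a kinetochore protein, read 8.27, 8.29 and 8.43 under PMA, against 10.61, 10.90 and 10.89 under vehicle, a difference of -2.47 (SE 0.15, adjusted p = 2.93e-08), and MIS12 differed by -0.20 (adjusted p = 0.336). Other mitotic kinesins and cytokinesis genes fell in 9 of 9, led by KIF15 at -2.36 (SE 0.21, adjusted p = 1.33e-06), and condensin II subunits in 3 of 3, led by NCAPD3 at -1.32 (SE 0.12, adjusted p = 1.50e-06). Centrosome and spindle pole genes fell in 12 of 14, with PLK4, the kinase of centriole duplication, at -2.13 (SE 0.29, adjusted p = 5.22e-05).

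Most of the genes that did not pass belong to the lists of the APC/C, cohesin and the DREAM complex. APC/C core subunits and partners fell in 8 of 14, against 18.9% of all genes, with a median of -0.37. FBXO5, the APC/C inhibitor also called EMI1, differed by -2.04 (SE 0.20, adjusted p = 3.09e-06), while FZR1, the APC/C activator also called CDH1, differed by -0.08 (adjusted p = 0.743) and CDC27 by -0.02 (adjusted p = 0.937). Cohesin and its loaders fell in 5 of 9, with a median of -0.37, led by SMC1A, a subunit of the ring, at -1.23 (SE 0.15, adjusted p = 2.10e-05). Among other genes of the checkpoint and of cohesion protection 6 of 7 fell, with CDCA5, sororin, at -1.98 (SE 0.18, adjusted p = 1.47e-06), and MAD2L2, which also acts in DNA repair, rose by 0.59 (SE 0.15, adjusted p = 0.0086).

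Regulators of CDK1 fell in 9 of 12 and rose in 1, against 18.9% of all genes that fell and 12.7% that rose. WEE1, which inhibits CDK1, differed by -1.90 (SE 0.19, adjusted p = 3.90e-06). CDKN1A, the p21 inhibitor of cyclin-dependent kinases, read 10.56, 11.22 and 11.21 under PMA, against 6.32, 6.47 and 6.42 under vehicle, and rose by 4.59 (SE 0.25, adjusted p = 1.11e-08). DREAM and MuvB genes fell in 8 of 12, with MYBL1, A-Myb, at -2.0 (SE 0.31, adjusted p = 0.000159) and the pocket protein gene RBL1 at -1.91 (SE 0.25, adjusted p = 3.58e-05). In the same list RBL2, another pocket protein gene, and E2F4 differed by 0.12 (adjusted p = 0.61) and 0.11 (adjusted p = 0.524). LIN37, a MuvB subunit, differed by 0.33 (SE 0.15, adjusted p = 0.111) without doxycycline and rose by 0.57 (SE 0.15, adjusted p = 0.00666) with it, and the interaction for LIN37 was 0.25 with an adjusted p of 1.

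**Figure D5:**
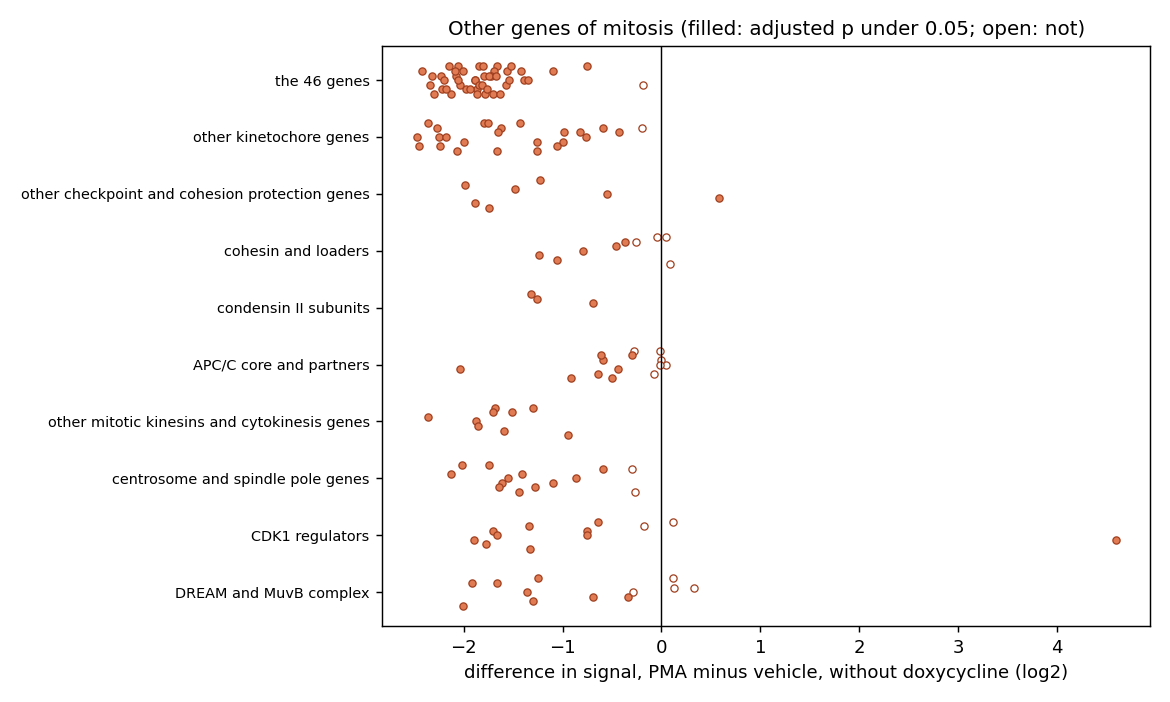
Each point is 1 gene's difference in signal, PMA minus vehicle without doxycycline (log2), for the 46 genes and for 9 lists of other mitosis genes, filled where the adjusted p was under 0.05. CDKN1A lies at 4.59 and MAD2L2 at 0.59, and all other filled points lie below 0.

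The label of the cells was checked against markers. Of 8 myeloid markers measured, 6 lay on average above the 70th percentile of all probe sets, with LYZ at percentile 98.9, and MPO the lowest at percentile 33.5. ITGAM, the integrin CD11b of mature monocytes and macrophages, read 11.34, 11.89 and 11.97 under PMA, against 7.23, 6.63 and 6.91 under vehicle, and rose by 4.81 (SE 0.22, adjusted p = 2.26e-09 by limma). The other 7 did not pass, and 6 of the 8 markers lay below 0, with a median of -0.13 over the list and LYZ at -0.55 (adjusted p = 0.0775). The log2 signals of the 8 markers summed to 66.7 to 70.8 under PMA with doxycycline, 67.2 to 70.6 under PMA, 65.3 to 65.9 under vehicle with doxycycline and 64.6 to 66.8 under vehicle, so the gap between the sums is about as large as the ITGAM difference alone. Of 10 markers of other lineages 1 lay above the 70th percentile, COL1A1 at 76.2, and the lowest was EPCAM at 9.95. These 10 had a median percentile of 50.5, and 5 of them lay above the 50th. Their sums were 48.0 to 49.5, 46.4 to 48.5, 47.8 to 48.1 and 47.2 to 48.2 in the same 4 groups. Of these 10 markers 0 passed without doxycycline and CD3D alone rose with it, by 0.39 (SE 0.12, adjusted p = 0.0207 by limma), and its part in the result was not tested. The 46 genes lay between percentiles 71.2 and 98.9 under vehicle, and their median percentile was 82.2 under PMA, against 93.5 under vehicle, so that the signal of most of them under PMA still lay in the upper part of the array.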

How the data were processed

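RNA of the 12 samples was hybridised to 12 Affymetrix HG-U133 Plus 2.0 arrays. The deposited values are log2 signals per probe set, made by the authors with RMA per the submitters' processing notes, which give no version. RMA joins background correction, quantile normalization and summary of probes, so array medians are nearly equal by construction and each value is relative to its array. Of 54675 probe sets, 41091 had 1 gene in the platform annotation, 1801 several, 11721 none and 62 were controls. Symbols of 41037 were updated through RefSeq (GRCh38.p14). For each of 19775 genes the probe set with the highest mean was tested with limma 3.58.1 in R 4.3.3 (lmFit and eBayes, 4 group means, 8 residual degrees of freedom, two-sided, Benjamini-Hochberg over all genes, adjusted p under 0.05). The procedure was tested on simulated data, for PMA against vehicle without doxycycline alone. The simulated noise was independent between arrays, so that check does not cover deviations shared by the arrays numbered 1, nor the doxycycline tests. Single values had an exact permutation test over 400 relabelings within the other factor, with a smallest p of 0.005. A test of 3 arrays against 3 cannot go below 0.1.

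The members and lists were chosen with earlier results of these data known. Genes described in full are, by role, those with the largest and the smallest PMA difference, members not called, and CDK1, MKI67, FOXM1 and MYBL2. For doxycycline they are the 3 smallest p, and in the other lists the called genes with the largest fall and rise. RBL1, RBL2, E2F4, FZR1, CDC27, MIS12, ITGAM and CD3D were named after their values were seen, as was the promoter of ESPL1.

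Within an agent, arrays with the same replicate number had correlations of deviations from the group means between 0.254 and 0.637, all above the limit of 0.1. Only the arrays numbered 1, at 0.637 under PMA and 0.57 under vehicle, stood well above arrays of different numbers. Replicates 2 and 3 had 0.288 and 0.324 under PMA, below the highest value of differently numbered arrays, 0.394. Under vehicle they had 0.254 and 0.308, against 0.241. Across agents with the same doxycycline state the correlations of same-numbered arrays lay between -0.0105 and 0.196. Across agents with different doxycycline states they lay between 0.101 and 0.269, so same-numbered arrays of the 2 agents also shared some deviation. The replicate block was therefore tried as an alternative, beside other normalizations, other choices of probe set, a filter on dim genes, an intensity trend, fits of the compared groups alone and each array left out. The number of arrays limits the precision.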

Additional observations from a re-analysis of the deposited data

How the results depend on the processing

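In both PMA comparisons the 46 genes kept their direction and their calls in most alternatives. Without doxycycline 45 of 46 were called in each alternative, and with doxycycline 44 or 45. The medians over the 46 genes ran from -1.84 to -1.72 without and from -1.91 to -1.76 with doxycycline over other normalizations, probe set choices and fits. Leaving out arrays gave medians from -2.05 to -1.74 without and from -2.21 to -1.76 with doxycycline, where the largest fall came from leaving out the arrays numbered 1. With the replicate number as a block the medians stayed at -1.84 and -1.91 and 45 genes were called in each, and the pairing changed no other call. INCENP with doxycycline lost its call in 14 alternatives, among them quantile normalization (-0.40, adjusted p = 0.124 by limma), cyclic loess (-0.41, adjusted p = 0.0988) and a fit of the 2 groups alone (adjusted p = 0.0746), and the cause was not tested. Doxycycline called 0 of the 46 genes in all alternatives run, the block included, with a median over PMA-treated cells between -0.28 and 0.10. In the shorter promoter window, from 100 bases before to 50 after the start, the E2F core was found in 2 of 40 promoters, the CHR in 26 and CCAAT in 24, since fewer bases were searched. No result changed direction, apart from values near 0 that had passed no test. A single probe set, 3 arrays per group and 1 hairpin limit what these values can show, and dim probe sets carry little signal over background.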
